A study of Mus musculus with 12 samples.

Results

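Interferon response genes are transcribed more strongly in cells that receive an interferon signal. Of the 13016 mouse genes in the table used here, 42 genes of this kind were selected by symbol, in 8 groups by role, and followed through 12 libraries of early thymic precursors. All 42 passed the filter on low values, 1 RPKM or more in at least 4 libraries, and so belonged to the 10690 genes tested. RPKM are reads divided by transcript length and by library size.

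Early thymic precursors are the first cells of the thymus that can give rise to T cells. Each library held the full-length messenger RNA of 100 sorted cells from C57BL/6 mice, and each of the 3 groups had 4 libraries. Every animal carried loxP-flanked alleles, Ezh2 fl/fl and Runx1 fl/fl. The control group had these alleles and no recombinase. The group called dKO was Ezh2 fl/fl Runx1 fl/fl with Rag1Cre+, a recombinase under the control of Rag1, a gene switched on in early lymphoid progenitors. The group called dKO_Flt3ITD had the same alleles, Rag1Cre+ and in addition Flt3 ITD/+, an internal tandem duplication in a copy of the receptor Flt3 that makes it active without its ligand. Ezh2 is the histone methyltransferase of Polycomb repressive complex 2, and Runx1 is a transcription factor of blood cell development. The labels give neither the age of the mice nor whether the replicates were separate animals, so p-values measure the spread between these libraries, which may be technical.

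Type I interferons bind a receptor made of Ifnar1 and Ifnar2, whose kinases Jak1 and Tyk2 switch on a transcription factor complex that includes Stat2 and Irf9. It binds the interferon-stimulated response element (ISRE) in promoters. Interferon gamma acts through Ifngr1 and Ifngr2 and the gamma-activated site (GAS). The induced genes encode sensors of foreign nucleic acid, enzymes that degrade RNA or stop translation, the ubiquitin-like protein ISG15, and GTPases that attack the vacuoles of intracellular microbes.

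The whole reads recovered from the RPKM steps totalled 12986893 to 33125729 per library, and the median member had 1410 to 6793 reads in a library. Such reads were amplified from few cells and are not independent molecules. The summed RPKM of a library ran from 515638 in control 1 to 1071041 in dKO_Flt3ITD 1. In the mutant groups it was lowest in dKO 2 (554474.5) and dKO_Flt3ITD 4 (576131). Over tested genes, control 1 correlated least with the rest, at a mean of 0.79, compared with 0.83 to 0.86 for the other libraries. The targeted gene Ezh2 had control, dKO and dKO_Flt3ITD means of 39.8 ± 5.83, 22.6 ± 5.87 and 16.4 ± 5.59 RPKM (SD, n = 4), and all mutant libraries lay below all controls (exact two-sided permutation p = 0.0286 for each, the smallest that 4 against 4 allows). Its limma adjusted p was 0.470 and 0.0949. Runx1 was higher in both mutant groups, 21.2 ± 4.57 RPKM in control against 46.4 ± 11.1 and 47.5 ± 11.8, and a value over the whole gene does not show the deleted part. All 10 defining markers of early thymic precursors were in the table, with summed levels of 726 to 1067 RPKM in control, 585 to 705 in dKO and 563 to 696 in dKO_Flt3ITD.

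On average, the 42 genes were higher in 7 of the 8 mutant libraries than in any control library. For each library, the deviation of log2(RPKM + 1) from the gene's own mean over the 12 libraries was averaged over the 42 genes. This average was -1.38, -0.37, -0.57 and -0.80 in control 1 to 4. It was 0.21, -0.11, 0.70 and 0.69 in dKO 1 to 4, all above the controls. In dKO_Flt3ITD it was 0.74, 0.79 and 0.82 in libraries 1 to 3 and -0.73 in library 4, which lay within the control range. In dKO_Flt3ITD 4, 36 of the 42 genes had the lowest value of their group, compared with 23.6% of all other tested genes. The exceptions were Irf1, Ifit2, Rsad2, Samd9l, Gbp3 and Lgals3bp. Similarly, 28 of the 42 were lowest in dKO 2 (26.1% of other genes) and 25 in control 1 (35.6%). Libraries dKO_Flt3ITD 4, dKO 2 and control 1 also had the lowest summed RPKM of their groups, and the part of this in the averages was not tested.

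**Figure D1:**
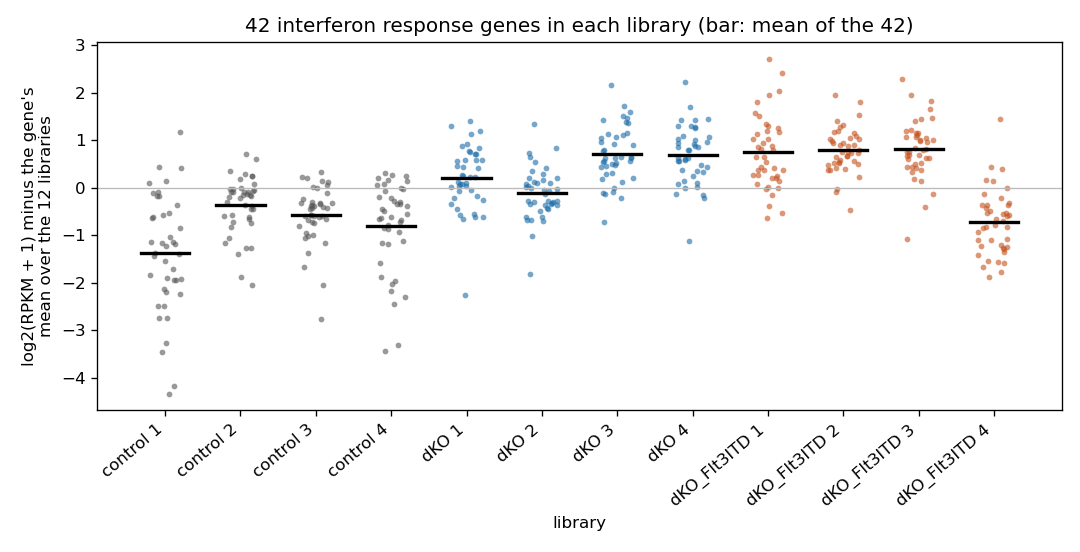
Each point is an interferon response gene in a library, plotted as its log2(RPKM + 1) minus that gene's mean over the 12 libraries, and each bar is the mean over the 42 genes. The control bars lie between -1.38 and -0.37, those of dKO 1 to 4 and dKO_Flt3ITD 1 to 3 between -0.11 and 0.82, and that of dKO_Flt3ITD 4 at -0.73.

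Counted against the controls, 22, 18, 36 and 33 of the 42 genes exceeded all 4 control libraries in dKO 1 to 4. For all tested genes the corresponding shares were 26.5%, 18.6%, 21% and 21.2%. In dKO_Flt3ITD 1 to 4 the numbers were 34, 35, 36 and 7 genes, against 27.1%, 22.8%, 24.2% and 20.9% of all tested genes. Library dKO_Flt3ITD 4 thus had few members above the controls, while its Ezh2 value of 14.9 RPKM was below every control.

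The same library differed in markers of other cells. The summed level of the 8 granulocyte and monocyte markers in the table was 1446 RPKM in dKO_Flt3ITD 4, compared with 124 to 408 in control, 153 to 322 in dKO and 119 to 681 in the other dKO_Flt3ITD libraries. Mpo, which encodes myeloperoxidase, was at 721 RPKM there, 66.0 to 230 in control, 15.4 to 105 in dKO and 7.71 to 56.5 in dKO_Flt3ITD 1 to 3. Elane, neutrophil elastase, was at 105 RPKM in dKO_Flt3ITD 4. Notch1, the receptor that drives T cell commitment, was at 2.10 RPKM there and at 21.3 to 40.5 in the other 11 libraries. Not all markers of early thymic precursors were low in this library. Their sum was 660 RPKM (563 to 696 in the rest of the group), Cd34 was at 273 RPKM (135 to 233) and Flt3 at 70.1 (7.73 to 29.4). The 9 macrophage markers summed to 19.2 to 66.8 RPKM in control, 45.9 to 141 in dKO and 50.4 to 154 in dKO_Flt3ITD, with Timd4 under 1 RPKM in every library. The 10 conventional dendritic cell markers summed to 162 to 572, 213 to 407 and 119 to 2116 RPKM, the highest in dKO_Flt3ITD 1. Plasmacytoid dendritic cells are strong producers of type I interferon. Their 8 markers that are not among the 42 genes summed to 69.0 to 254 RPKM in control, 12.7 to 26.3 in dKO and 17.1 to 26.1 in dKO_Flt3ITD, and Siglech, which defines them, was under 1 RPKM in every library. Much of that fall was in Ly6d, at 17.0 to 202 RPKM in control and 0 to 7.38 in the mutants. With Bst2, which is among the 42 genes, 7 markers of this list were tested. In dKO against control, 5 of the 7 log2 fold changes were negative, with a median of -1.09. Ly6d and Cox6a2 were called lower there. In dKO_Flt3ITD against control, 4 were positive, Bst2 at 1.04 among them, with a median of 0.04. Ccr9, Ly6d and Cox6a2 were called lower there. None was called higher, and 0.234% and 0.505% of all tested genes were called lower. The 8 markers of later thymocytes in the table summed to 33.5 to 57.8 RPKM in control and 107 to 166 in dKO. The sum was 66.6 to 99.0 in dKO_Flt3ITD 1 to 3 and 17.9 in dKO_Flt3ITD 4. Of these markers 6 were tested, and 5 log2 fold changes were positive in each comparison with control, with medians of 1.52 and 0.40. Only S1pr1 was called, beside 0.786% and 0.992% of tested genes called higher. S1pr1, a receptor for exit from the thymus, rose by 2.67 in dKO and 2.44 in dKO_Flt3ITD (log2, limma adjusted p 0.0162 and 0.0247). Of the granulocyte, monocyte and macrophage markers, Ctsg, Emr1 and Spic were called higher in dKO_Flt3ITD against control, and none in dKO. Ctsg rose by 3.61 and Emr1 by 3.50 (log2, limma adjusted p 0.0247 and 0.0481). Both were highest in dKO_Flt3ITD 4 and next in dKO_Flt3ITD 1, Ctsg at 218 and 184 RPKM and Emr1 at 43.4 and 31.8. In dKO_Flt3ITD 4 the sum of the 4 natural killer and innate lymphoid markers, 232 RPKM, was the lowest of the 12 libraries and that of the 3 erythroid and megakaryocyte markers, 55.5 RPKM, the highest. The part of these cells in the results below was not tested, and in pooled cells more cells of a type and more RNA per cell cannot be told apart.

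In dKO against control, Igtp and Gbp2 rose, both of them interferon-induced GTPases. These were 2 of the 42 genes, or 4.76%, and 0.786% of all tested genes were called higher (limma on log2(RPKM + 1), Benjamini-Hochberg adjusted p under 0.05). No member was called lower, against 0.234% of tested genes. The log2 fold change was positive for 41 of 42 (50.7% of tested genes), Eif2ak2 at -0.11 being the exception. The median over the 42 was 1.07 and over all tested genes 0.01, and the members ran from -0.11 to 2.76. An unadjusted p under 0.05 with a higher value was reached by 23 members, or 54.8% (5.46% of tested genes), and none was lower (3.71%). This number was 13 without dKO 3 or without dKO 4 and 15 without control 1. In both directions together, 981 of all tested genes had such a p with all libraries. They were 882 without dKO 3, 913 without dKO 4 and 917 without control 1. For 12 members, or 28.6% (3.93% of tested genes), the 4 dKO libraries lay above the 4 controls with no overlap: Ddx58, Isg20, Trim30a, Ifi203, Isg15, Herc6, Parp14, Dtx3l, Igtp, Gbp2, Ifi27l2a and Xaf1. No member lay below all controls (2.38%).

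In dKO_Flt3ITD against the same controls, Igtp, Isg20 and Ifi27l2a rose, 3 of 42 or 7.14%, beside 0.992% of tested genes. None was called lower, against 0.505% of tested genes. Again 41 of 42 log2 fold changes were positive (50.1% of tested genes), and here Irf1 at -0.29 was the exception. The members' median was 1.02, their range -0.29 to 3.38, and the median of all tested genes 0.00. Higher values with an unadjusted p under 0.05 were found for 22 members, or 52.4% (7.63% of tested genes), and lower ones for 0 members (5.79%). The number was 14, 13 and 12 without dKO_Flt3ITD 1, 2 and 3, 15 without control 1 and 30 without dKO_Flt3ITD 4. In both directions together, 1435 of all tested genes had such a p with all libraries. They were 1232, 1279 and 1263 without dKO_Flt3ITD 1, 2 and 3, 1443 without control 1 and 1670 without dKO_Flt3ITD 4. The groups did not overlap for Oasl1, Igtp, Ifi27l2a and Lgals3bp, 9.52% of the members (4.16% of tested genes), and no member lay below all controls (3.51%). Without dKO_Flt3ITD 4, limma called 10 members higher (Irf7, Ifit3, Oas1a, Isg20, Ifi44, Isg15, Parp14, Igtp, Ifi27l2a and Xaf1). All tested genes called higher were then 121, beside 106 with all libraries, and the members' median rose to 1.45. This library stood out because these same genes were low in it, so higher values without it follow from that choice and are no support. The same holds wherever it is left out below. For those of the 10 not called with all libraries, the highest limma adjusted p with 1 library left out ran from 0.197 (Parp14) to 0.560 (Xaf1). Both comparisons share the 4 control libraries and are given side by side for that reason. With every library rescaled to the same RPKM sum, which put the median of all tested genes at -0.11 in dKO and -0.21 in dKO_Flt3ITD, 40 and 38 members were above 0 and their medians were 0.93 and 0.78.

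The numbers of calls rested on single libraries. In dKO against control, 0 members were called without control 1, without dKO 3 or without dKO 4, and 1 without control 4. Of all tested genes 57, 45, 43 and 60 were then called higher, beside 84 with all libraries. In dKO_Flt3ITD against control, 1 was called without control 1, dKO_Flt3ITD 1, 2 or 3. The tested genes called higher were then 67, 70, 70 and 90, beside 106 with all libraries. Control 1 was lowest of the 12 libraries for 20 of the 42 genes, and the medians without it were 0.88 and 0.82.

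In dKO_Flt3ITD against dKO no member was called in either direction by limma, and no gene of the 10690 was (0% each way). At an unadjusted p under 0.05, 0 members were higher (3.7% of tested genes) and Gbp2 was lower (4.01%), and voom on the recovered reads called no gene either. Other alternatives called up to 6 genes of the whole table, the most without dKO_Flt3ITD 3 and 5 after quantile normalization, none of them a member. The median over the 42 was 0.04, from -1.27 for Gbp2 to 0.92 for Bst2, with 23 values above 0 (50.3% of tested genes). Without dKO_Flt3ITD 4 the median was 0.40 with 34 values above 0. Then 6 members were higher at an unadjusted p under 0.05, and no member was called. In both directions together, 942 of all tested genes had such a p, beside 824 with all libraries.

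**Figure D2:**
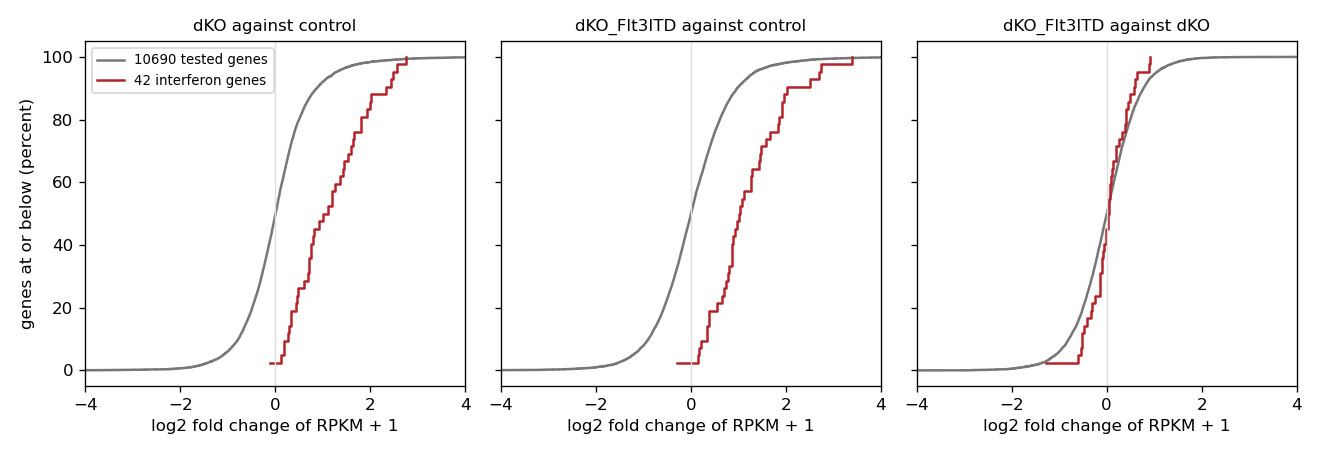
Cumulative percentage of genes (vertical axis) at or below a log2 fold change of RPKM + 1 (horizontal axis), for the 42 interferon response genes in red and the 10690 tested genes in grey, in the 3 comparisons. Against control the red curves cross 50% at 1.07 and 1.02, right of the grey curves at 0.01 and 0.00, and for dKO_Flt3ITD against dKO at 0.04.

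The letters of the ISRE, the element through which type I interferon acts, were looked for in the members' promoters. RefSeq windows from 250 bases before to 50 bases after the start site (GRCm38.p6) were found for 33 of the 42 genes. The ISRE core was searched on both strands as GAAA, then any 2 bases, then GAAA, which reads TTTC, any 2 bases and TTTC on the other strand. It was present in 16 of the 33 genes, or 48.5%, compared with 3.99% of the 27025 genes with windows and 4.02% of the 8003 tested ones. The GAS motif TTCNNNGAA, where N is any base and which is its own reverse complement, was present in 8, or 24.2%, compared with 9.55% and 8.57%. In Bst2 a GAS match overlapped an ISRE core match. Of the 25 ISRE core matches in the members' windows, 14 began in the 100 bases before the start site, 7 further away and 4 at or after it. The 16 genes with the core had a median log2 fold change of 1.52 in dKO and 1.28 in dKO_Flt3ITD, and the 17 without it 0.76 and 0.81. For the 9 genes with no window the medians were 1.20 and 1.07. The ranges overlapped, in dKO from -0.11 to 2.76 with the core and from 0.19 to 2.33 without it. In dKO_Flt3ITD they were 0.35 to 2.71 and -0.29 to 2.73. The difference between these sets was not tested. Such a match describes the letters of the window and shows no binding.

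The 250 bases before the RefSeq start site are printed for 5 genes, those with the largest mean absolute change against control among the genes with the core that are described library by library. They are written 5′ to 3′ on the gene's own strand, with the matches in capitals, so that the position of the core can be compared. In Isg15 the capitals join 3 overlapping matches that begin at -78, -72 and -66 from the start. In Ifit3 they mark a pair of matches read on the opposite strand. Igtp also holds the GAS match TTCTAGGAA, in lower case in its line, which begins at -45. The GENCODE start of Gbp2 lies before the RefSeq one, so its line was ended 20 bases past the GENCODE start, and its core lies just after that start.
Ifit3, chr19:34583279-34583528, plus strand: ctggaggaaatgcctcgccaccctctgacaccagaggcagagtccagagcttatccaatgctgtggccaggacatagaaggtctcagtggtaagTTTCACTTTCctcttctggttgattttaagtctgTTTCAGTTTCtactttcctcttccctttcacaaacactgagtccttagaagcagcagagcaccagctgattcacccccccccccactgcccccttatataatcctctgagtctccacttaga
Isg15, chr4:156200819-156201068, minus strand: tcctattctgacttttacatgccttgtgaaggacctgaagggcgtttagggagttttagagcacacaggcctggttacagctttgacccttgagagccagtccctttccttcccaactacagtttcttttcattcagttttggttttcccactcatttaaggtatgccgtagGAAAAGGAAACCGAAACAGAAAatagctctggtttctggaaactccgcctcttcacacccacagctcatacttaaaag
Igtp, chr11:58199306-58199555, plus strand: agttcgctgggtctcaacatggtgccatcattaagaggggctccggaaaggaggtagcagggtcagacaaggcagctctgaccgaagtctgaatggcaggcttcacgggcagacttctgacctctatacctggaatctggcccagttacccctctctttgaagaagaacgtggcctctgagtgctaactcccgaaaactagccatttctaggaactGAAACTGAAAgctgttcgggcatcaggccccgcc
Gbp2, chr3:142620413-142620621, plus strand: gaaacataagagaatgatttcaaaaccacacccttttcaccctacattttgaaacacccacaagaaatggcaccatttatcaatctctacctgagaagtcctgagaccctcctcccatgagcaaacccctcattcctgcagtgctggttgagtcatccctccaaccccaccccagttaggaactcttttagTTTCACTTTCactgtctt
Trim30a, chr7:104465194-104465443, minus strand: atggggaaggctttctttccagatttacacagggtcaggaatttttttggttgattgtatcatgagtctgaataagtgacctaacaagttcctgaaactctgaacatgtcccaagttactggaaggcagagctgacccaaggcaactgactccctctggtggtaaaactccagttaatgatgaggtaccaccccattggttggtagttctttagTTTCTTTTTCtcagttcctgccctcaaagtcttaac

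**Figure D3:**
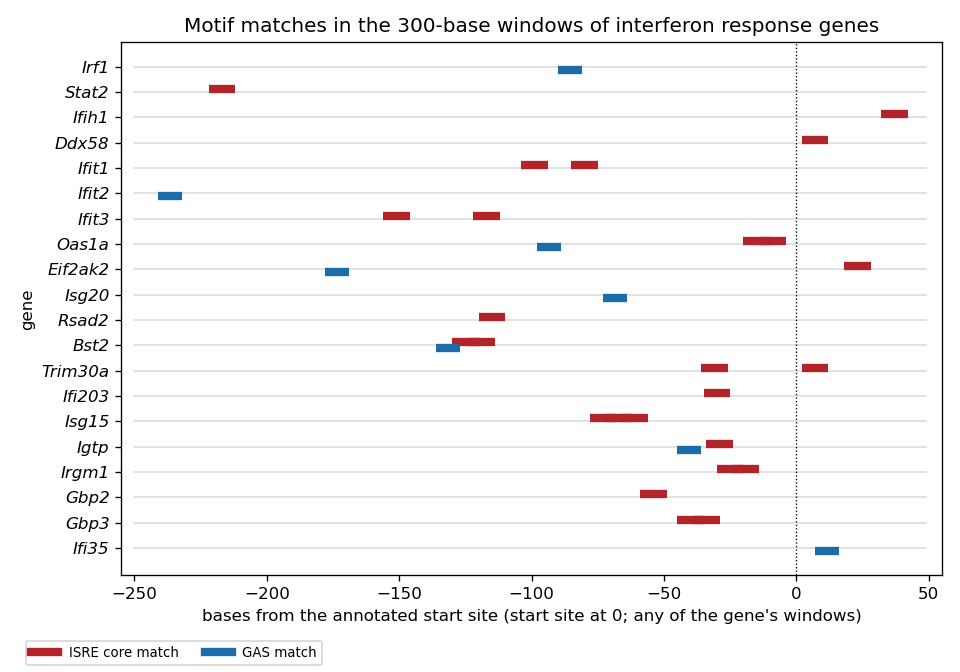
Matches of the ISRE core (red) and GAS (blue) by distance in bases from the annotated start site (0, dotted line), for the interferon response genes with at least 1 match. Most red bars stand in the 100 bases left of the start, with the 3 joined matches of Isg15 as the longest.

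Among the transcription factors, Irf7 had the largest differences. Irf7 encodes the factor that amplifies type I interferon production. Its level was 50.1, 54.7, 72.2 and 23.9 RPKM in control 1 to 4, 59.0, 105, 196 and 176 in dKO and 143, 170.5, 198 and 60.5 in dKO_Flt3ITD. The highest control was at 72.2 RPKM, and dKO 1 and dKO_Flt3ITD 4 fell among them. The log2 fold change was 1.36 in dKO (limma adjusted p = 0.246) and 1.47 in dKO_Flt3ITD (0.142), or 1.83 without dKO_Flt3ITD 4 (0.0457). Irf9 and Stat2, which belong to the complex that binds the ISRE, had log2 fold changes of 0.33 and 0.49 in dKO and 0.20 and 0.88 in dKO_Flt3ITD. Irf1, which responds to interferon gamma, was at 71.2 to 88.8 RPKM in control, 63.3 to 119.7 in dKO and 55.9 to 88.9 in dKO_Flt3ITD. None of the 4 factors passed the test in either comparison, and their medians were 0.41 and 0.54.

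The 4 sensors of nucleic acid had medians of 1.17 in dKO and 1.20 in dKO_Flt3ITD, and none passed. Ddx58 encodes RIG-I, a sensor of viral RNA with a 5′ triphosphate. It was at 15.6, 15.1, 17.2 and 19.4 RPKM in control, 28.3, 31.9, 22.1 and 31.1 in dKO and 27.7, 41.9, 39.1 and 14.3 in dKO_Flt3ITD. All dKO libraries lay above all controls, and so did dKO_Flt3ITD 1 to 3, while dKO_Flt3ITD 4 lay below them (log2 fold change 0.71 and 0.73, limma adjusted p 0.639 and 0.412). Zbp1, a sensor of Z-form nucleic acid that triggers necroptosis, was listed at 0 in control 1 and stood at 7.05, 6.30 and 7.86 RPKM in control 2 to 4. It was at 19.7, 4.43, 19.7 and 19.9 in dKO and 30.3, 26.3, 28.2 and 3.79 in dKO_Flt3ITD, so that dKO 2 and dKO_Flt3ITD 4 fell below 3 controls. Its log2 fold changes of 1.64 and 1.96 did not pass (limma adjusted p 0.517 and 0.253).

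Dhx58 encodes LGP2, a regulator of RIG-I-like signalling. Its values were 5.47, 20.7, 26.3 and 26.3 RPKM in control, 14.7, 25.1, 53.4 and 36.0 in dKO and 31.1, 46.4, 56.7 and 6.32 in dKO_Flt3ITD. The groups overlapped in both comparisons, with log2 fold changes of 0.74 and 0.65. For Ifih1, which encodes MDA5, the sensor of long double-stranded RNA, they were 1.59 and 1.66 (limma adjusted p 0.416 and 0.256). Ifih1 was at 0.0941 RPKM in control 4 and 6.16 to 10.7 in the other controls.

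The 8 effectors that act on RNA had medians of 1.29 in dKO and 1.53 in dKO_Flt3ITD. Isg20, an exonuclease that degrades RNA (chromosome 7, 78913424 to 78920396, GRCm38), was at 23.3, 24.9, 79.5 and 22.5 RPKM in control. It reached 241, 99.98, 198 and 156 in dKO and 565, 306, 289 and 44.8 in dKO_Flt3ITD. The dKO values lay above every control, whereas dKO_Flt3ITD 4 lay below control 3. In dKO_Flt3ITD the mean was 301 ± 212 RPKM against 37.6 ± 28 in control (SD, n = 4), and Isg20 rose by 2.73 ± 0.61 log2 units (SE, limma adjusted p = 0.0326). This call was lost without control 1, 2 or 4 (0.0853, 0.0850 and 0.0919) and without dKO_Flt3ITD 1, 2 or 3 (0.111, 0.0872 and 0.0812), and without dKO_Flt3ITD 4 the value was 3.48 (0.000614). In dKO the difference of 2.33 did not pass (0.0864).

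Ifit3, a member of a family that binds viral RNA, had the largest log2 fold change of all members in dKO. It was at 0.129, 24.8, 9.07 and 2.72 RPKM in control, 29.4, 11.8, 89.7 and 64.7 in dKO and 45.2, 77.4, 78.0 and 5.90 in dKO_Flt3ITD. Control 2 exceeded dKO 2 and dKO_Flt3ITD 4, and control 1 was far below the other controls. The log2 fold changes were 2.76 ± 0.90 and 2.71 ± 0.90 (SE), with limma adjusted p of 0.229 and 0.178, and without dKO_Flt3ITD 4 the latter was 3.52 (0.0459).

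The other 6 RNA-directed genes passed in neither comparison. Ifit1 and Oas1a, the latter a synthase of the 2-5A messenger that activates RNase L, had log2 fold changes of 1.45 and 1.65 in dKO and 1.48 and 1.84 in dKO_Flt3ITD. For Oas1a the latter was 2.51 without dKO_Flt3ITD 4 (limma adjusted p = 0.0342). Oasl1 and Oasl2, related proteins, were at 0.93 and 1.12 in dKO and 1.58 and 0.71 in dKO_Flt3ITD. Ifit2 was at 0.76 and 0.14. Eif2ak2, which encodes the kinase PKR that halts translation on binding double-stranded RNA, was at -0.11 and 0.35. Ifit2, Ifit3 and Ifit1 lie near each other on chromosome 19, and Oasl2 and Oasl1 on chromosome 5. Reads shared by related genes of a family cannot be assigned with certainty. Values of single family members are therefore uncertain, as are those of the Gbp, Ifi200 and Trim30 families.

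**Figure D4:**
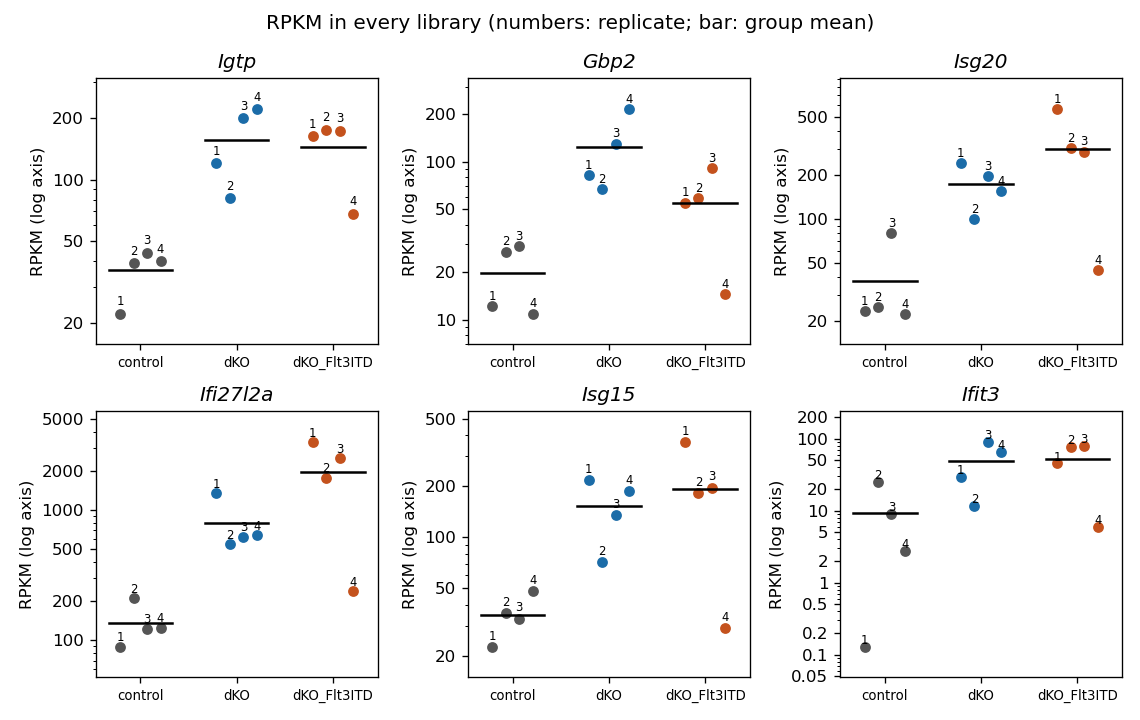
RPKM (log axis) in every library of Igtp, Gbp2, Isg20, Ifi27l2a, Isg15 and Ifit3, with the replicate number beside each point and the group mean as a bar. In dKO_Flt3ITD, library 4 lies below the other 3 in each of the 6 panels. Only for Igtp and Ifi27l2a does it lie above all 4 controls.

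The 10 other antiviral effectors had medians of 0.76 in dKO and 0.96 in dKO_Flt3ITD, with all values positive and none past the test. Ifi44, an interferon-induced protein of the cytoplasm, was at 29.3, 111, 57.9 and 37.4 RPKM in control, 250.3, 93.9, 304 and 227 in dKO and 137, 230.3, 260.4 and 46.5 in dKO_Flt3ITD. Control 2 exceeded dKO 2 and dKO_Flt3ITD 4. The log2 fold changes were 1.94 and 1.42 (limma adjusted p 0.109 and 0.237), the latter 1.95 (0.0471) without dKO_Flt3ITD 4. Trim30a, a negative regulator of Toll-like receptor signalling, was at 16.7, 43.9, 35.4 and 40.1 RPKM in control, 75.4, 72.8, 70.5 and 97.9 in dKO and 88.3, 76.0, 90.8 and 41.8 in dKO_Flt3ITD. Every mutant library but dKO_Flt3ITD 4 lay above every control, at 1.27 and 1.13 (0.136 and 0.159).

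Ifi203, a gene of the family that senses DNA, was at 143, 142, 102 and 92.7 RPKM in control and at 179, 172, 224 and 206 in dKO with no overlap. In dKO_Flt3ITD it was at 137, 239.6, 219.6 and 79.3 and overlapped. Its log2 fold changes were 0.72 and 0.39 (limma adjusted p 0.549 and 0.677). Ly6e, a membrane protein that blocks virus entry, had the highest mean level of the 42 genes. It was at 730.5, 1976, 1855 and 1793 RPKM in control, 2637, 1279, 1385 and 1704 in dKO and 3269.8, 1516, 1766 and 894 in dKO_Flt3ITD. These groups overlapped, with a log2 fold change of 0.18 in each, and the sign turned under 4 of 23 alternatives in dKO and 6 of 23 in dKO_Flt3ITD.

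The remaining 7 antiviral effectors passed in neither comparison. Rtp4, which restricts flaviviruses, was at 1.20 in dKO and 1.07 in dKO_Flt3ITD, Mx1, the GTPase that blocks influenza virus, at 1.43 and 1.92, and Rsad2, or viperin, at 0.80 and 0.87 (log2 fold changes). Samd9l was at 0.29 and 0.54 and Sp100, a nuclear body protein, at 0.43 and 0.34. Bst2, or tetherin, which holds budding virus at the cell surface, was at 0.13 in dKO and 1.04 in dKO_Flt3ITD (limma adjusted p 0.982 and 0.334). The difference for Bst2 between dKO_Flt3ITD and dKO, 0.92, did not pass either (0.677). Mx1 was at 0.0539 RPKM in control 3 and 2.20 to 5.62 in the other controls.

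ISG15 is a ubiquitin-like protein that is attached to other proteins during the interferon response. Isg15 was at 22.7, 36.0, 33.2 and 48.4 RPKM in control, 216, 71.7, 135 and 187 in dKO and 363, 182, 196 and 29.4 in dKO_Flt3ITD. All dKO libraries and dKO_Flt3ITD 1 to 3 lay above the highest control, and dKO_Flt3ITD 4 among the controls. The means were 35.1 ± 10.5, 153 ± 63.4 and 193 ± 137 RPKM (SD, n = 4). The log2 fold change was 2.02 ± 0.58 (SE) in each comparison, with limma adjusted p of 0.136 and 0.106. Without dKO_Flt3ITD 4 it was 2.76 in dKO_Flt3ITD (0.00168).

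Herc6, the ligase that attaches ISG15 in mouse cells, was at 6.82, 9.25, 12.3 and 17.5 RPKM in control, 24.8, 37.0, 29.7 and 43.9 in dKO and 13.7, 55.6, 66.5 and 4.76 in dKO_Flt3ITD. The dKO group did not overlap with control and the dKO_Flt3ITD group did, at 1.52 and 1.01 (limma adjusted p 0.418 and 0.517). Usp18, which removes ISG15 and dampens receptor signalling, was at 0.34 and 0.92, and Trim25, the ligase of RIG-I, at 0.61 and 0.81. No gene of this system passed, and the medians of the 4 were 1.07 and 0.97.

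Parp9, Parp14 and Dtx3l belong to a system of ADP-ribosylation and ubiquitination. Parp14 was at 6.56, 3.41, 2.68 and 4.11 RPKM in control, 16.3, 11.6, 17.3 and 22.7 in dKO and 15.9, 25.9, 31.0 and 6.38 in dKO_Flt3ITD. No dKO library overlapped with control, and in dKO_Flt3ITD library 4 fell just under control 1. The log2 fold changes were 1.81 ± 0.49 and 1.85 ± 0.49 (SE), with limma adjusted p of 0.105 and 0.0740, the latter 0.0159 without dKO_Flt3ITD 4. Dtx3l was at 29.5, 38.6, 34.6 and 31.3 RPKM in control, 74.5, 44.1, 49.2 and 55.7 in dKO and 42.4, 50.8, 58.9 and 29.1 in dKO_Flt3ITD, at 0.70 and 0.39 (0.517 and 0.660). Its transcript overlaps that of Parp9 on the other strand, with start sites 681 bases apart. Whether the authors' counting used strand is not given in the sources used here, so reads of the overlap cannot be assigned. Parp9 was at 0.82 and 0.97.

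The interferon-induced GTPases had the highest median of the role groups in dKO, 2.0, with 2 of 5 called (0.786% of tested genes), and 1.30 in dKO_Flt3ITD with 1 of 5 called (0.992%). Igtp, or Irgm3, is a GTPase of the defence against intracellular parasites (chromosome 11, 58199556 to 58207591, GRCm38). It was at 22.3, 39.2, 44.1 and 40.1 RPKM in control, 119.9, 81.1, 199 and 221 in dKO and 163, 175, 173 and 68.2 in dKO_Flt3ITD. All 8 mutant libraries lay above all controls, the nearest being dKO_Flt3ITD 4. The means were 36.4 ± 9.67, 155 ± 65.6 and 145 ± 51.4 RPKM (SD, n = 4). Igtp rose by 2.0 ± 0.40 log2 units in dKO and 1.91 ± 0.40 in dKO_Flt3ITD (SE, limma adjusted p = 0.0171 and 0.0209). The adjusted p in dKO was 0.0570 without control 1, 0.0758 without dKO 3 and 0.0775 without dKO 4. In dKO_Flt3ITD it was 0.0597 without control 1 and 0.0611, 0.0720 and 0.0624 without dKO_Flt3ITD 1, 2 and 3. The gene overlaps Irgm2, another GTPase of the family, in the annotation.

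Gbp2, a guanylate-binding protein that coats pathogen vacuoles (chromosome 3, 142620602 to 142638008), was at 12.1, 26.9, 29.2 and 10.9 RPKM in control. It was at 82.6, 67.1, 131 and 216 in dKO and at 55.1, 59.0, 91.2 and 14.4 in dKO_Flt3ITD. Every dKO library lay above the highest control, whereas dKO_Flt3ITD 4 fell among the controls. Gbp2 rose by 2.57 ± 0.53 log2 units in dKO (SE, limma adjusted p = 0.0210), from 19.8 ± 9.59 to 124 ± 67.2 RPKM (SD, n = 4). Its adjusted p was 0.0747 without control 1, 0.0733 without control 4, 0.0746 without dKO 3 and 0.0952 without dKO 4. In dKO_Flt3ITD the mean was 54.9 ± 31.5 RPKM and the log2 fold change 1.30 (0.283), or 1.83 without library 4 (0.0585). The difference between the mutant groups, -1.27, had an adjusted p of 0.585.

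Ifi47, or Irgd, was at 64.4, 164, 129 and 115 RPKM in control, 288, 138, 268 and 251 in dKO and 228, 238, 192 and 132 in dKO_Flt3ITD. Control 2 lay above dKO 2 and dKO_Flt3ITD 4 (log2 fold changes 1.02 and 0.78, limma adjusted p 0.253 and 0.330). Gbp3 was at 2.44 and 2.50 (0.192 and 0.132). It stood at 0.0838 and 0.0525 RPKM in control 1 and 4 and at 8.82 and 9.71 in control 2 and 3. Unlike most members, Gbp3 was highest of its group in dKO_Flt3ITD 4, at 27.1 RPKM. Irgm1, a regulator of the other GTPases of its family, was at 1.80 and 1.26, with 5.13 RPKM in control 1 and 70.6 to 199 in the other controls.

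Ifi27l2a, a small interferon-induced protein (chromosome 12, 103442167 to 103443680), had the largest change of the 42 genes in dKO_Flt3ITD. It was at 89.6, 209.7, 123 and 125 RPKM in control, 1351, 545, 622 and 639 in dKO and 3321, 1776, 2487 and 238 in dKO_Flt3ITD. All mutant libraries lay above all controls, dKO_Flt3ITD 4 by little. Means were 137 ± 51.2, 789 ± 376 and 1955 ± 1308 RPKM (SD, n = 4). Ifi27l2a rose by 3.38 ± 0.60 log2 units in dKO_Flt3ITD (SE, limma adjusted p = 0.00675), and without library 4 by 4.22 (1.31e-05). This call held with each single library left out. The difference in dKO, 2.49 ± 0.60, had an adjusted p of 0.0583, and that between dKO_Flt3ITD and dKO, 0.89, one of 0.782.

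Xaf1, a promoter of apoptosis, was at 34.7, 45.5, 42.7 and 38.9 RPKM in control, 118, 55.5, 104 and 110.0 in dKO and 216, 154, 127 and 21.8 in dKO_Flt3ITD. The dKO group lay above control and dKO_Flt3ITD 4 below it. The log2 fold changes were 1.19 and 1.27 (limma adjusted p 0.488 and 0.293), the latter 1.98 without dKO_Flt3ITD 4 (0.00559). Lgals3bp, a secreted glycoprotein that binds galectins, was at 97.9, 71.1, 85.0 and 150.0 RPKM in control, 138, 82.5, 145 and 114 in dKO and 164, 164, 226 and 168 in dKO_Flt3ITD. It was the only member whose 4 dKO_Flt3ITD libraries, library 4 included, lay above both other groups. It was also the only member above dKO without overlap, 2.38% of the members and near the 2.08% of tested genes, and no member lay in dKO_Flt3ITD below dKO without overlap (2.2%). Its log2 fold changes were 0.27 in dKO, 0.87 in dKO_Flt3ITD and 0.60 between the mutant groups (0.906, 0.201 and 0.680). Ifi35 was at 0.47 and 0.88 and passed in neither.

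**Figure D5:**
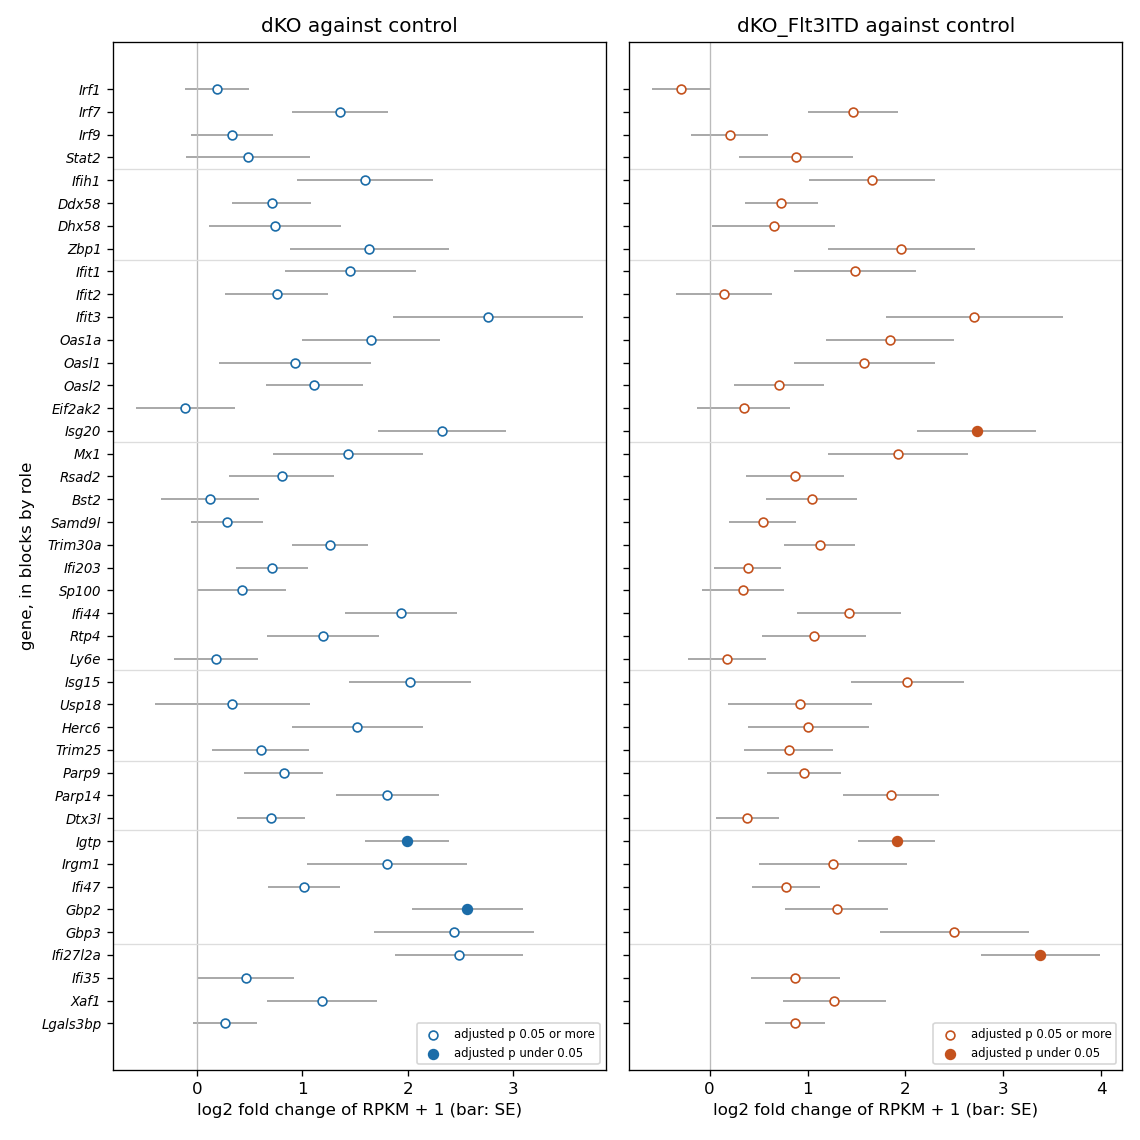
Log2 fold change of RPKM + 1 with its SE for the 42 genes, in blocks by role, in dKO (left) and dKO_Flt3ITD (right) against control. Filled points have an adjusted p under 0.05: Igtp and Gbp2 on the left, Isg20, Igtp and Ifi27l2a on the right. All points lie right of 0 but Eif2ak2 on the left and Irf1 on the right.

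No interferon receptor or receptor kinase upstream of these genes passed the test. None of the 19 interferon symbols looked for matched a gene of the table, so the ligands were not analysed here. Of 16 receptor and proximal signalling genes 15 were tested, with medians of 0.13 in dKO and 0.11 in dKO_Flt3ITD. There 0 and 1 were called higher (0.786% and 0.992% of tested genes) and none lower (0.234% and 0.505%). Ifnar1, Ifnar2, Ifngr1, Ifngr2, Jak1, Tyk2 and Irf3 had log2 fold changes of -0.58 to 0.31 in dKO and -0.53 to 0.57 in dKO_Flt3ITD, and none passed. Of 26 genes of upstream sensing and of nucleases that limit it, such as Trex1 and Samhd1, 24 were tested. None was called, and their medians were 0.03 and 0.16. At the shares called over all tested genes, 0 calls in lists this short do not set them apart from the whole table.

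The called gene among receptors and proximal signalling was Socs1, the feedback inhibitor of the Jak kinases. It was listed at 0 in control 1 and 2 and stood at 0.0599 and 0.0259 RPKM in control 3 and 4. It was at 3.35, 2.70, 2.09 and 1.76 RPKM in dKO and 2.52, 3.77, 17.2 and 14.9 in dKO_Flt3ITD. All mutant libraries exceeded all controls, and dKO_Flt3ITD 4 was among the highest. The log2 fold change was 1.75 in dKO (limma adjusted p = 0.201) and Socs1 rose by 3.03 in dKO_Flt3ITD (0.00705).

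A further 62 interferon-induced genes that are not among the 42 were also examined, of which 56 were tested. Their medians were 1.28 in dKO and 1.26 in dKO_Flt3ITD, with 54 and 53 values above 0 (50.7% and 50.1% of tested genes). There 9 and 10 genes were called higher (0.786% and 0.992% of tested genes) and none lower (0.234% and 0.505%), and 0 between the mutant groups. Plscr1, a phospholipid scramblase with antiviral action, rose by 3.70 and 3.54 log2 units (limma adjusted p 0.00137 and 0.00160). It was at 1.19, 3.40, 3.0 and 0.210 RPKM in control, 20.1, 36.7, 23.3 and 68.0 in dKO and 37.0, 25.5, 16.2 and 48.7 in dKO_Flt3ITD. Slfn2, a Schlafen protein of lymphocyte quiescence, rose by 3.71 and 4.20 (0.00496 and 0.00160), with 1.25 to 18.2 RPKM in control, 32.6 to 109.7 in dKO and 32.6 to 165 in dKO_Flt3ITD. For Plscr1 and Slfn2 library dKO_Flt3ITD 4 was the highest of its group, at 48.7 and 165 RPKM, in contrast to most of the 42 genes. Their calls held with each single library left out.

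Apol9a, Iigp1 and Phf11b also rose in both mutant groups. Iigp1, a GTPase related to Igtp, was at 0.531 to 26.8 RPKM in control, 50.1 to 211 in dKO and 33.2 to 101 in dKO_Flt3ITD, and rose by 3.61 and 2.95 (limma adjusted p 0.0155 and 0.0430). In dKO its call was lost without dKO 3 (0.0603) or dKO 4 (0.0606), and in dKO_Flt3ITD without any of control 1, 3 and 4 and dKO_Flt3ITD 1, 2 and 3 (0.0721 to 0.113). Apol9a rose by 3.21 and 3.79 (0.0337 and 0.00814), the former lost without control 1, 3 or 4 or dKO 1, 3 or 4 (0.0756 to 0.107). Phf11b rose by 2.43 and 1.98 (0.0168 and 0.0478). Its call was lost in dKO without control 1 or 4 or dKO 1 or 3 (0.0532 to 0.0655), and in dKO_Flt3ITD without any library but dKO_Flt3ITD 4 of the 2 groups (0.0505 to 0.150).

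Gbp4 and Gbp8 rose in dKO, by 3.40 and 3.18 (limma adjusted p 0.0207 and 0.0314), and stood at 1.04 and 1.97 in dKO_Flt3ITD (0.553 and 0.197). The dKO call of Gbp4 was lost without control 1, 3 or 4 or dKO 3 or 4 (0.0576 to 0.0791), and that of Gbp8 without control 1 or 4 or dKO 1 or 4 (0.0933 to 0.109). Ifi204 and Phf11d rose in dKO_Flt3ITD, by 3.06 and 3.40 (0.0125 and 0.0249), and stood at 0.63 and 2.48 in dKO (0.869 and 0.149). The call of Ifi204, a DNA sensor, was lost without dKO_Flt3ITD 2 (0.0506), and that of Phf11d without control 2, 3 or 4 or dKO_Flt3ITD 1, 2 or 3 (0.0531 to 0.0826). For Gbp4 and Ifi204 the difference between the mutant groups was -2.36 and 2.43 (0.346 and 0.261), so neither passed.

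The 42 genes were spread over 16 chromosomes, with 9 of them on chromosome 11. Apart from Igtp and the Dtx3l and Parp9 pair, the annotation (GENCODE release M21, GRCm38) has Ifi203, Irf9, Rtp4, Irf7, Ifi47 and Irf1 overlapping another protein-coding gene, so part of their reads may belong to it.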

How the data were processed

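Per the labels' protocols, 100 cells were sorted into lysis buffer for each library and amplified as full-length cDNA (SMARTer). The submitters' processing notes give mm10 as the build and list HTSeq 0.5.4p5, TopHat2 2.0.10 and SAMtools 0.1.19. The authors deposited RPKM values for 13016 genes in 12 libraries. Not given in the sources used here are the total behind the scaling, the choice of genes and the use of strand in counting. From the smallest steps between RPKM values, whole reads were recovered for 99.97% of genes (tolerance 0.001).

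Groups came from the sample titles. Genes at 1 RPKM or more in 4 or more libraries, 10690 in all, were tested. A single limma 3.58.1 model (R 4.3.3) of log2(RPKM + 1) held the 12 libraries, had 9 residual degrees of freedom and let the variance follow intensity. Its p-values were adjusted by Benjamini-Hochberg over all tested genes and called under 0.05. Fold changes on this scale understate the change of low genes. The fit was tested on simulated data with 200 changed genes. Ezh2 and Runx1 also had an exact permutation test. Gene positions came from GENCODE M21 and promoters from RefSeq. Promoter windows were matched by symbol for 33 of the 42 genes. Dhx58, Ly6e, Zbp1, Rtp4, Usp18, Parp14, Mx1, Ifi27l2a and Parp9 had no entry.

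The 42 genes, the lists of related genes and the cell markers were chosen with earlier results of these data known, so no test was made of a list as a whole. Values in every library are given for members called in any comparison, for the largest change and the highest mean level of each role, and for groups without overlap whose higher mean was 20 RPKM or more. This rule gave 20 members, and the other 22 are given by their fold changes. Of other genes, 7 receptor and signalling genes and up to 10 called list genes are named. A further item under this rule is not reported here. Alternatives were other pseudocounts, filters and scalings, other variance models, only the 8 libraries compared, voom on the recovered reads, a replicate term and leaving out libraries. Summaries and figures used Python 3.11.15 with numpy 2.4.6, pandas 2.3.3, scipy 1.17.1 and matplotlib 3.10.9.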

Additional observations from a re-analysis of the deposited data

Results flagged for a closer look

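In 114 sets of 4 libraries (a gene in a group), 13 had a lowest or highest library whose gap to the nearest of the others was past Dixon's critical value at the 95% level. Chance alone gives about 1 in 20 such sets. In control 1, Dhx58 at 5.47, Zbp1 at 0 and Ly6e at 730.5 RPKM lay below the other controls, and Ifnar2 at 45.7 RPKM above them. In control 2, Apol9a at 1.82 and Gbp4 at 1.63 RPKM lay above the other controls, and in control 3 so did Isg20 at 79.5 RPKM. In dKO 2, Zbp1 at 4.43 and Xaf1 at 55.5 RPKM lay below the other dKO libraries. In dKO_Flt3ITD 4, Zbp1 at 3.79 and Igtp at 68.2 RPKM lay below the rest of their group. In dKO_Flt3ITD 3, Lgals3bp at 226 and Gbp8 at 14.9 RPKM lay above it.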

How the results depend on the processing

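The members' direction was less sensitive to the processing than the number of calls. Their median log2 fold change ran from 0.88 to 1.28 in dKO and from 0.78 to 1.45 in dKO_Flt3ITD over all alternatives. Between the mutant groups it ran from -0.23 to 0.40, so its sign is not settled, and no member was called under any of them. In dKO 2 members were called. The number was 1 with no filter on low values and 3 with a filter of 5 RPKM in 4 libraries. It was 4 with libraries rescaled to the same RPKM sum and 4 after quantile normalization. With array weights it was 6, with only the 8 libraries compared 5 and by voom on the recovered reads 0. In the same order, 47, 83, 82, 94, 150, 107 and 4 of all tested genes were called higher, beside 84 in the main fit. Leaving out single libraries gave 0 to 2, with 43 to 74 of all tested genes called higher. In dKO_Flt3ITD 3 were called. The number was 2 with no filter on low values, 2 with only the 8 libraries compared and 4 with array weights. It was 1 without the intensity trend and 0 by voom. In the same order, 63, 76, 137, 96 and 13 of all tested genes were called higher, beside 106 in the main fit. Leaving out single libraries gave 1 to 10, with 67 to 121 of all tested genes called higher. Without control 1, dKO 1 and dKO_Flt3ITD 1 together, 0 were called in both comparisons, and the medians were 0.89 and 0.84. Of all tested genes 33 and 56 were then called higher. Voom called 5 genes of the whole table in dKO and 27 in dKO_Flt3ITD, beside 109 and 160 by limma. With voom the adjusted p was 0.0831 and 0.0630 for Igtp in dKO and dKO_Flt3ITD, 0.0867 for Gbp2, 0.112 for Isg20 and 0.0701 for Ifi27l2a. The cause of these differences was not tested.

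Over all alternatives the calls in the whole table ran from 5 to 210 in dKO, from 27 to 235 in dKO_Flt3ITD and from 0 to 6 between the mutant groups. In dKO_Flt3ITD they split into 106 higher and 54 lower, and into 84 and 84 after rescaling to the same RPKM sum. Signs turned under at least 1 alternative for Eif2ak2, Bst2, Ly6e and Usp18 in dKO and for Irf9, Ifit2, Sp100, Ly6e and Usp18 in dKO_Flt3ITD, none of which was called.

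Replicate numbers are shared between groups, but same-numbered libraries did not deviate together (correlations of -0.147 to 0.126, mean -0.004), and the labels do not say what a number stands for. With the replicate number as a block, 2 members were called in dKO, 3 in dKO_Flt3ITD and 0 between the mutant groups. Of all tested genes 66, 73 and 0 were then called higher.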
